A study of Mus musculus with 12 samples.

Results

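The matrix metalloproteinases (Mmp), the ADAMTS proteases (Adamts), the ADAMTS-like proteins (Adamtsl) and the tissue inhibitors of metalloproteinases (Timp) were followed in wild-type and CBP/p300 null mouse embryonic fibroblasts (MEFs). The genes were chosen by symbol: Mmp, Timp, Adamts or Adamtsl followed by a number. Of 51 genes of these 4 families in the gene table, 40 had a probe set with exactly 1 symbol and were measured, of 17097 genes in all. They comprised 18 Mmp, 14 Adamts, 5 Adamtsl and 3 Timp genes. The other 11 were not analysed here.

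Expression was measured on 12 microarrays, 3 for each of 4 groups. Primary MEFs from e14.5 embryos (C57Bl/6 x 129Sv F1) were wild type or homozygous for conditional alleles of CBP and p300, related acetyltransferases that serve as coactivators for many transcription factors. Cultures of both genotypes, wild type included, received Cre adenovirus, which removes the conditional alleles and gives the double knockout (dKO). At passage 4 the cells were plated with virus at a multiplicity of 100 for 16 h, kept at 3% oxygen for a further 48 h and moved to normoxia for 24 h. They were then given 100 µM 2,2'-dipyridyl (DP), an iron chelator that stabilises hypoxia-inducible factor (HIF), or the ethanol vehicle, for 3 h. Wild type was represented by lines 3, 4 and 5 and dKO by lines 1, 5 and 6, with 1 array per line and treatment. Values are listed in that line order throughout. The labels call these separate numbered MEFs and do not say whether they came from separate embryos or litters, so p-values measure the spread between these samples.

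MMPs and ADAMTS proteases are zinc enzymes that cut proteins of the extracellular matrix and of the cell surface. They are made as inactive proforms, are switched on by furin-like proteases, plasmin or one another, and are held in check by the TIMPs, which bind the active site. Fibroblasts are a main source of both the enzymes and the inhibitors, and several Mmp genes are classical targets of the transcription factor AP-1.

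The median probe set of an array read 3.86 to 3.98 on the log2 scale. Blank control probe sets gave a level of 3.40, and a group mean at or under it is called near blank. The number of arrays limits the precision. All 6 HIF targets listed as a check of the treatment rose with DP in both genotypes, among them Ankrd37 and Vegfa. Crebbp, the gene for CBP, read 8.07 to 8.55 on the wild-type arrays and 7.02 to 7.69 on the dKO arrays, and the sources used here do not place its probes within or outside the deletion. Xist read 10.28 to 10.75 in wild type and 3.94 to 5.32 in dKO, so the sex of the lines and the genotype cannot be told apart. In ethanol, 2 arrays deviated, wild-type line 5 and dKO line 1, whose mean correlation with the rest of their group was 0.990 and 0.989.

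Loss of CBP and p300 went with lower levels of 22 of the 40 genes in ethanol and of 24 of the 40 under DP, and with higher levels of 0 in either treatment. Among all 17097 genes, 14.1% were lower in dKO in ethanol and 16.9% under DP, and 19.5% and 18.5% were higher. The same 22 genes were lower in both treatments, and Mmp7 and Adamts9 passed as lower under DP only. The change with DP did not differ between genotypes past the threshold for either (adjusted p = 0.746 and 0.603 in limma). All 3 measured Timp genes, 9 Mmp, 7 Adamts and 3 Adamtsl genes were lower in ethanol, so that inhibitors and enzymes were lower together. The median log2 change of the 40 genes was -0.57 in ethanol and -0.67 under DP, against -0.01 over all genes in both. A decrease of 2-fold or more was called for 17 genes in each treatment, where 5.16% of all genes showed one in ethanol and 5.92% under DP. The tests were limma contrasts with Benjamini-Hochberg adjustment over all genes. Both treatments were applied to the same 6 lines, so the 2 comparisons share their lines although not their arrays.

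**Figure D1:**
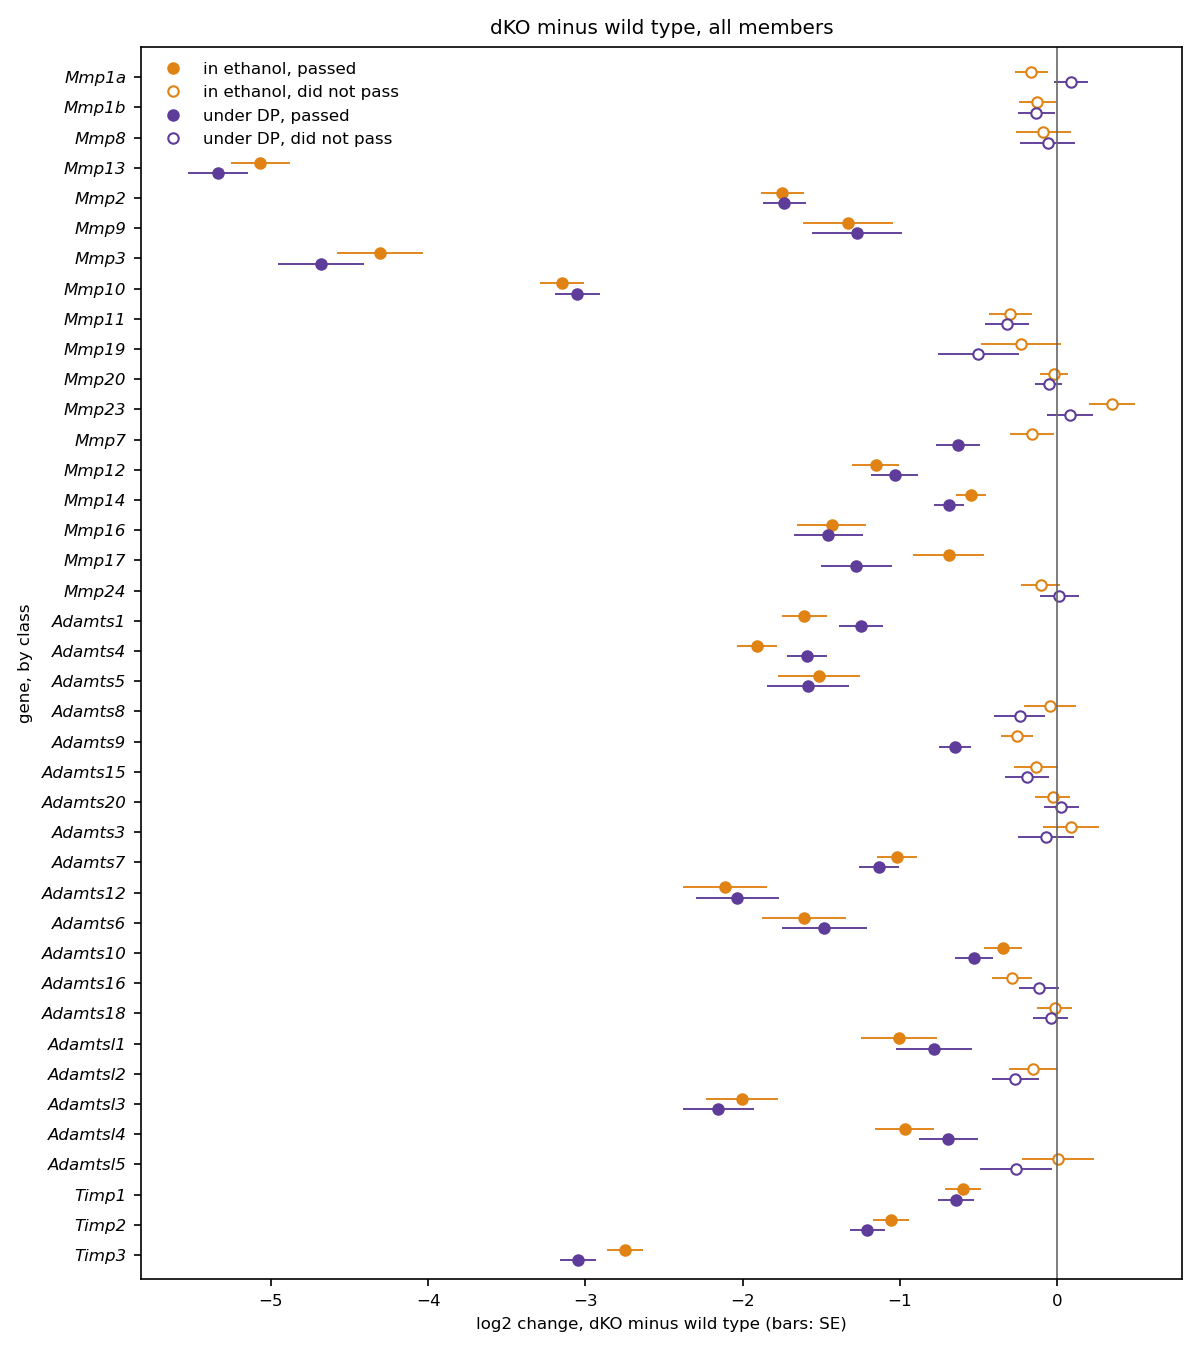
Log2 change (dKO minus wild type, 3 lines against 3) of each of the 40 genes on the horizontal axis, in ethanol (orange) and under DP (purple), ordered by class, with bars of 1 SE; filled points passed the test. Mmp13, Mmp3, Mmp10 and Timp3 lie farthest to the left, and every filled point lies below 0.

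Several cell-wide measures moved with genotype too. All 10 fibroblast markers measured were lower in dKO in both treatments, and their summed linear level was 29990 to 32050 in wild type and 10340 to 13680 in dKO with ethanol. All 4 smooth muscle markers were lower as well. Of 6 epithelial markers, 5 were lower in ethanol and 3 under DP, among them Krt18 (-2.04 in ethanol), and their summed level was 361.4 to 402.5 in wild type and 150.1 to 183.4 in dKO with ethanol. Of 6 cartilage markers, 3 were lower in ethanol and 4 under DP, among them Sox9 (-2.09 in ethanol), with summed levels of 185.6 to 211.7 and 79.16 to 112.6. Of 4 bone markers, 1 was lower in ethanol and 2 under DP, and of 5 endothelial markers 0 and 1. None of 5 neutrophil markers was called. Near blank in all 4 groups were 3 neutrophil, 2 endothelial, 2 bone, 1 cartilage and 1 epithelial marker, so no decrease could have been seen in them. The log2 difference between 3' and 5' actin probe sets, which grows as RNA is degraded, was 0.23 to 0.25 in wild type and 0.40 to 0.45 in dKO with ethanol, and 0.28 to 0.38 and 0.48 to 0.60 with DP. The same difference for Gapdh was -0.03 to 0.15 in wild type and 0.19 to 0.21 in dKO with ethanol. With DP the Gapdh ranges were 0.04 to 0.17 and 0.10 to 0.19, which overlap. The part of these cell-wide measures in the results on the protease genes was not tested. In bulk RNA, fewer cells of a type and less RNA per cell cannot be told apart.

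Mmp13 and Mmp3 were the genes of the 4 families that differed most between the genotypes: both were well expressed in wild-type fibroblasts and near blank in dKO. Mmp13, the main interstitial collagenase of rodents, gave 8.45, 8.44 and 8.37 in wild type and 3.06, 3.74 and 3.25 in dKO with ethanol, and 8.78, 8.31 and 9.03 in wild type and 3.26, 3.54 and 3.31 in dKO with DP. The lowest wild-type array stood above 8 and the highest dKO array below 4. Taking the blank level as the floor, Mmp13 was at least 32.5-fold lower in dKO in ethanol and at least 39.7-fold lower under DP. The fitted log2 changes were -5.07 ± 0.19 in ethanol (adjusted p = 3.60e-09) and -5.34 ± 0.19 under DP (adjusted p = 4.28e-09), which put Mmp13 in position 2 from the lowest of 17097 genes in both treatments.

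Mmp3, stromelysin-1, which cleaves proteoglycans and fibronectin and activates other pro-MMPs, gave 7.81, 7.08 and 8.19 in wild type and 3.40, 3.54 and 3.21 in dKO with ethanol, and 7.95, 7.31 and 8.34 in wild type and 3.39, 3.06 and 3.12 in dKO with DP. Wild-type line 4 was the lowest of its group in both treatments, and it still lay far above every dKO array. The gene was at least 19.6-fold lower in ethanol and at least 22.2-fold lower under DP. Its fitted log2 changes were -4.31 ± 0.27 in ethanol (adjusted p = 2.02e-07) and -4.68 ± 0.27 under DP (adjusted p = 9.81e-08), positions 4 and 3 from the lowest. Mmp10, stromelysin-2, stayed above the blank level in dKO, with 8.15, 8.16 and 7.95 in wild type and 4.88, 4.75 and 5.18 in dKO with ethanol, and 8.03, 8.04 and 7.77 in wild type and 4.72, 4.82 and 5.15 in dKO with DP. The groups were far apart and each was tight. Mmp10 was 8.88-fold lower in ethanol and 8.29-fold lower under DP, with log2 changes of -3.15 ± 0.14 in ethanol (adjusted p = 1.56e-08) and -3.05 ± 0.14 under DP (adjusted p = 2.21e-08).

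Mmp12, macrophage metalloelastase, was low throughout, at 4.45, 4.21 and 4.28 in wild type and 3.26, 3.14 and 3.07 in dKO with ethanol, and 4.23, 4.69 and 4.18 in wild type and 3.09, 3.50 and 3.42 in dKO with DP. It lay above blank on all wild-type arrays and near blank in both dKO groups, a decrease of at least 1.89-fold in ethanol and at least 1.96-fold under DP, with fitted log2 changes of -1.16 ± 0.15 in ethanol (adjusted p = 5.16e-05) and -1.03 ± 0.15 under DP (adjusted p = 1.21e-04). As Mmp12 is typical of macrophages, their markers were read beside it: Ptprc and Itgam were near blank in every group. Of the 8 macrophage markers, 3 were lower and 2 higher in dKO in ethanol, and 4 were lower and 2 higher under DP. Lyz2 fell by 3.41, Tyrobp fell by 1.37 to near blank and Csf1r fell by 0.66 in ethanol on the log2 scale, while Cd68 rose by 1.53 and Cd14 by 0.99. The summed level of the markers was 229.6 to 690.6 in wild type and 241.4 to 316.1 in dKO with ethanol, which overlap, and 262.9 to 574 and 235.9 to 251 with DP, which do not. The part of such cells was not tested. Mmp7, matrilysin, read 3.23, 3.23 and 2.97 in wild type and 3.07, 3.03 and 2.85 in dKO with ethanol, and 3.74, 3.22 and 3.30 in wild type and 2.95, 2.69 and 2.74 in dKO with DP. Only its wild-type DP group had a mean above the blank level, and narrowly. Its call under DP, -0.63 ± 0.14 (adjusted p = 0.0033), therefore rests on values at the floor, and in ethanol the change was -0.16 ± 0.14 (adjusted p = 0.434).

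All 5 genes lie in 1 cluster. In the RefSeq gene order of mouse chromosome 9, 10 Mmp genes follow one another, from Mmp13 through Mmp12, Mmp1b, Mmp3, Mmp1a, Mmp10, Mmp8, Mmp27 and Mmp20 to Mmp7. Of these, 9 were measured, 4 were lower in dKO in ethanol and 5 under DP. The remaining 4 measured genes, Mmp1a, Mmp1b, Mmp8 and Mmp20, were near blank in all 4 groups, so that no decrease could have been seen in them. Of the 7 measured genes flanking the cluster, 0 were lower in ethanol and 1, Birc3, was lower under DP, by 0.32 on the log2 scale. Birc2, an inhibitor-of-apoptosis gene close to the Mmp7 end, rose by 1.11 in ethanol and by 0.92 under DP, and Yap1 rose by 0.27 under DP. Dync2h1, at 0.46 ± 0.34 and 0.79 ± 0.34 (adjusted p = 0.353 and 0.0936), did not pass.

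**Figure D2:**
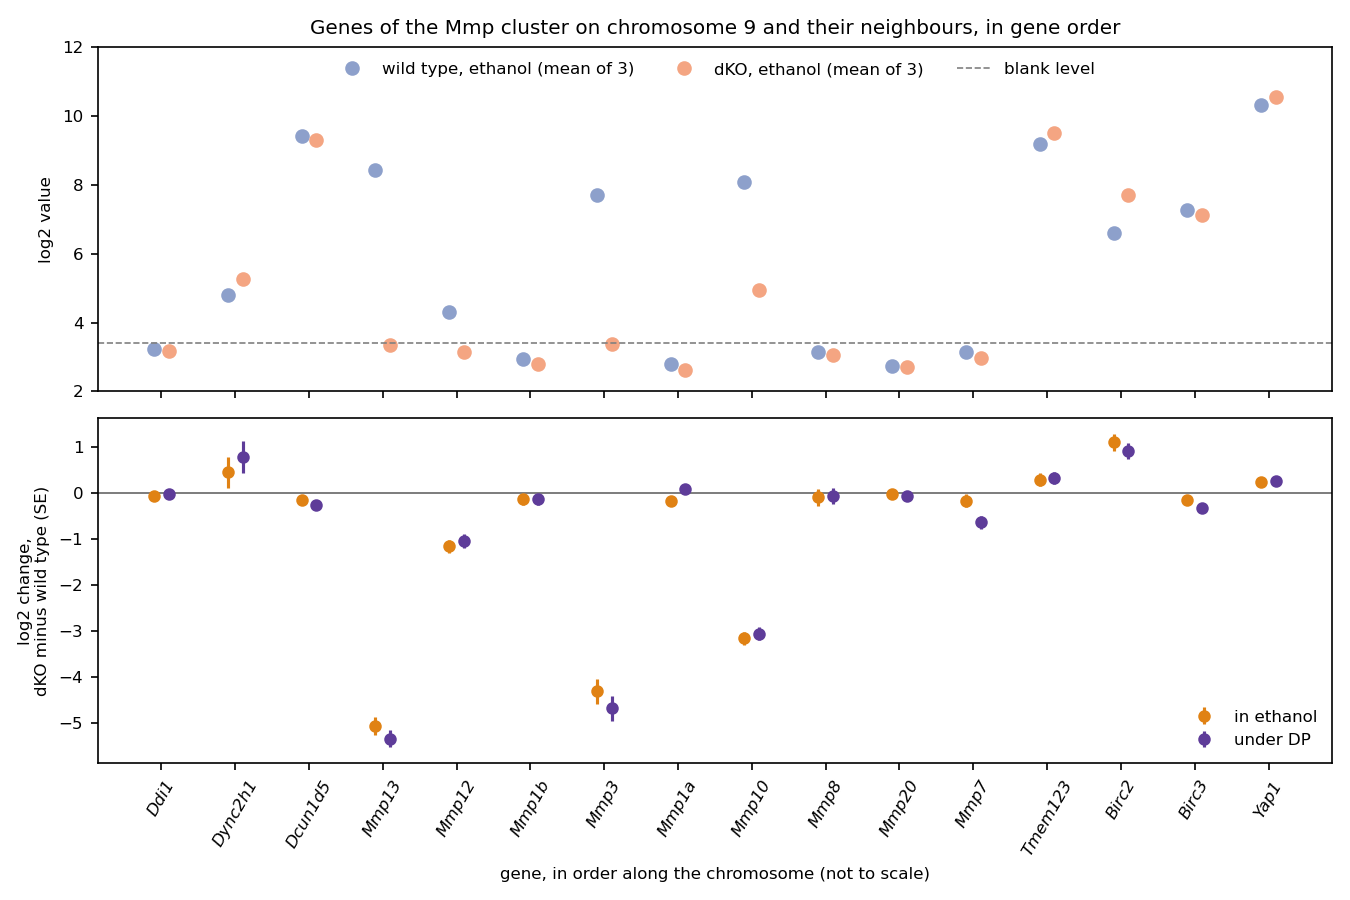
The upper plot shows mean log2 values in ethanol (wild type blue, dKO orange, 3 lines each, dashed line the blank level at 3.40) and the lower plot the log2 change, dKO minus wild type, with 1 SE, in ethanol (orange) and under DP (purple); genes stand in chromosome order, with levels not comparable between genes. Mmp13, Mmp3 and Mmp10 change by -3.05 to -5.34 log2 units, while the flanking genes range from -0.32 for Birc3 under DP to 1.11 for Birc2 in ethanol.

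The promoters of the 3 genes with the largest decrease in the cluster are shown beside that of a neighbour near blank, Mmp1a, to compare their motifs. Each line holds the 250 bases before the transcription start from RefSeq (GRCm38.p6), 5′ to 3′ on the gene's strand. Capitals mark matches on either strand to AP-1 (TGANTCA), to RUNX (TGTGGT) and to the TATA box (TATAAA).
Mmp13 (chr9:7272264-7272513, + strand): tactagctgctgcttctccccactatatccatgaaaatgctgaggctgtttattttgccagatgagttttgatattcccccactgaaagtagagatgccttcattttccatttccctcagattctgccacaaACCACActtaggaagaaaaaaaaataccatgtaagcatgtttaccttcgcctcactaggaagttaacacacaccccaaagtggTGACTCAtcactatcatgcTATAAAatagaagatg
Mmp3 (chr9:7445572-7445821, + strand): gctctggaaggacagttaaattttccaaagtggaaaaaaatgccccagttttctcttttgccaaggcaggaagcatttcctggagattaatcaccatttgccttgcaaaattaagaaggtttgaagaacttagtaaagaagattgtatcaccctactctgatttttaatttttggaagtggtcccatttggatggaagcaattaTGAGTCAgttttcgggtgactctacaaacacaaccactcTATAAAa
Mmp10 (chr9:7502092-7502341, + strand): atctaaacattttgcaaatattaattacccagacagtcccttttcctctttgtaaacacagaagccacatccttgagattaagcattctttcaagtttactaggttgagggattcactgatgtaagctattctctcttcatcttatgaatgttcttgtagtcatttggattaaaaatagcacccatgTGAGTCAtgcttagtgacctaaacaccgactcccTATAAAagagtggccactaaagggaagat
Mmp1a (chr9:7463891-7464140, + strand): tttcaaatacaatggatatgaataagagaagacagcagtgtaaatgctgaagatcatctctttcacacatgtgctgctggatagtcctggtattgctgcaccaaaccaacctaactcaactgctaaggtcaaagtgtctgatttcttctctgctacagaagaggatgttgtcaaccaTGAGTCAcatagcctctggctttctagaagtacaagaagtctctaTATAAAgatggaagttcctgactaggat
An AP-1 match began 35 bases before the start in Mmp13, 46 in Mmp3 and 63 in Mmp10, the 3 genes that lost most, and 73 bases before it in Mmp1a, whose values stayed near blank. No match overlapped another in these 4 sequences. Promoters were matched for 26 of the 40 genes, by any of their listed starts. The genes without a matched promoter all lay outside the cluster and were not searched. Among them were the called genes Mmp2, Mmp9, Mmp16, Mmp17, Adamts4, Adamts5, Adamts6, Adamts7, Adamts10 and Adamtsl1. The AP-1 letters stood in 8 of the 26, all 8 of them in the chromosome 9 cluster. They stood in 0 of the 17 genes elsewhere that had a promoter, whereas 6.75% of 32851 RefSeq promoter windows held them. Of those 8 genes, 3 (Mmp1a, Mmp1b and Mmp20) were near blank in all groups, so the match was found in genes above and near blank alike. Mmp12 held its match at the second of its listed starts and not at the first. TATA letters stood in 9 of the 26 genes, 7 of them in the cluster, against 12.4% of windows, RUNX letters in 5 against 14.0%, and the cyclic AMP response element (TGACGTCA), a site for CBP's partner CREB, in 0 against 1.55%. Such matches describe letters in a window and do not show binding.

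The gelatinases, which digest denatured collagen and basement membrane type IV collagen, were both lower. Mmp2, gelatinase A, gave 10.42, 10.54 and 10.77 in wild type and 9.05, 8.85 and 8.59 in dKO with ethanol, and 10.29, 10.37 and 10.54 in wild type and 8.74, 8.75 and 8.50 in dKO with DP. Every dKO array lay below every wild-type array in each treatment. Mmp2 was 3.36-fold lower in ethanol and 3.33-fold lower under DP, with log2 changes of -1.75 ± 0.14 in ethanol (adjusted p = 9.87e-07) and -1.74 ± 0.14 under DP (adjusted p = 9.70e-07). Mmp9, gelatinase B, gave 6.04, 6.54 and 6.75 in wild type and 5.51, 5.30 and 4.53 in dKO with ethanol, and 6.31, 6.85 and 6.19 in wild type and 5.28, 5.54 and 4.71 in dKO with DP. Its lines scattered more, with dKO line 6 lowest in both treatments, and the groups did not overlap. The log2 changes were -1.33 ± 0.29 in ethanol (adjusted p = 0.00269) and -1.27 ± 0.29 under DP (adjusted p = 0.00358).

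Of 4 measured membrane-type MMPs, which sit on the cell surface, 3 were lower. Mmp14, the collagenase that also activates pro-MMP2, read 11.25, 11.23 and 11.26 in wild type and 10.85, 10.62 and 10.63 in dKO with ethanol, and 11.29, 11.33 and 11.34 in wild type and 10.59, 10.55 and 10.76 in dKO with DP. The wild-type arrays agreed closely, all dKO arrays lay below them, and the decrease was modest, -0.55 ± 0.09 in ethanol (adjusted p = 5.16e-04) and -0.69 ± 0.09 under DP (adjusted p = 8.38e-05). Mmp16 gave 6.11, 6.40 and 5.58 in wild type and 4.36, 4.85 and 4.59 in dKO with ethanol, and 6.44, 6.18 and 6.19 in wild type and 4.82, 5.19 and 4.43 in dKO with DP, with log2 changes of -1.43 ± 0.22 in ethanol (adjusted p = 2.22e-04) and -1.46 ± 0.22 under DP (adjusted p = 1.93e-04). Every dKO array lay below every wild-type array. Mmp17 gave 5.16, 5.52 and 5.58 in wild type and 5.29, 4.51 and 4.38 in dKO with ethanol, and 5.79, 6.06 and 5.94 in wild type and 4.78, 4.92 and 4.27 in dKO with DP. In ethanol dKO line 1 lay within the wild-type range, and the call, -0.69 ± 0.23 (adjusted p = 0.0317), was lost without wild-type line 4 or 5 or dKO line 5 or 6, with adjusted p between 0.0901 and 0.141. Under DP the groups were apart, with a change of -1.28 ± 0.23 (adjusted p = 6.70e-04). The change of Mmp17 with DP in wild type, 0.51 ± 0.23 (adjusted p = 0.302), did not pass, nor did its difference between genotypes, -0.59 ± 0.32 (adjusted p = 0.926). Mmp24 was the membrane-type member that did not pass in any comparison, at -0.11 ± 0.12 and 0.01 ± 0.12 in ethanol and under DP.

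**Figure D3:**
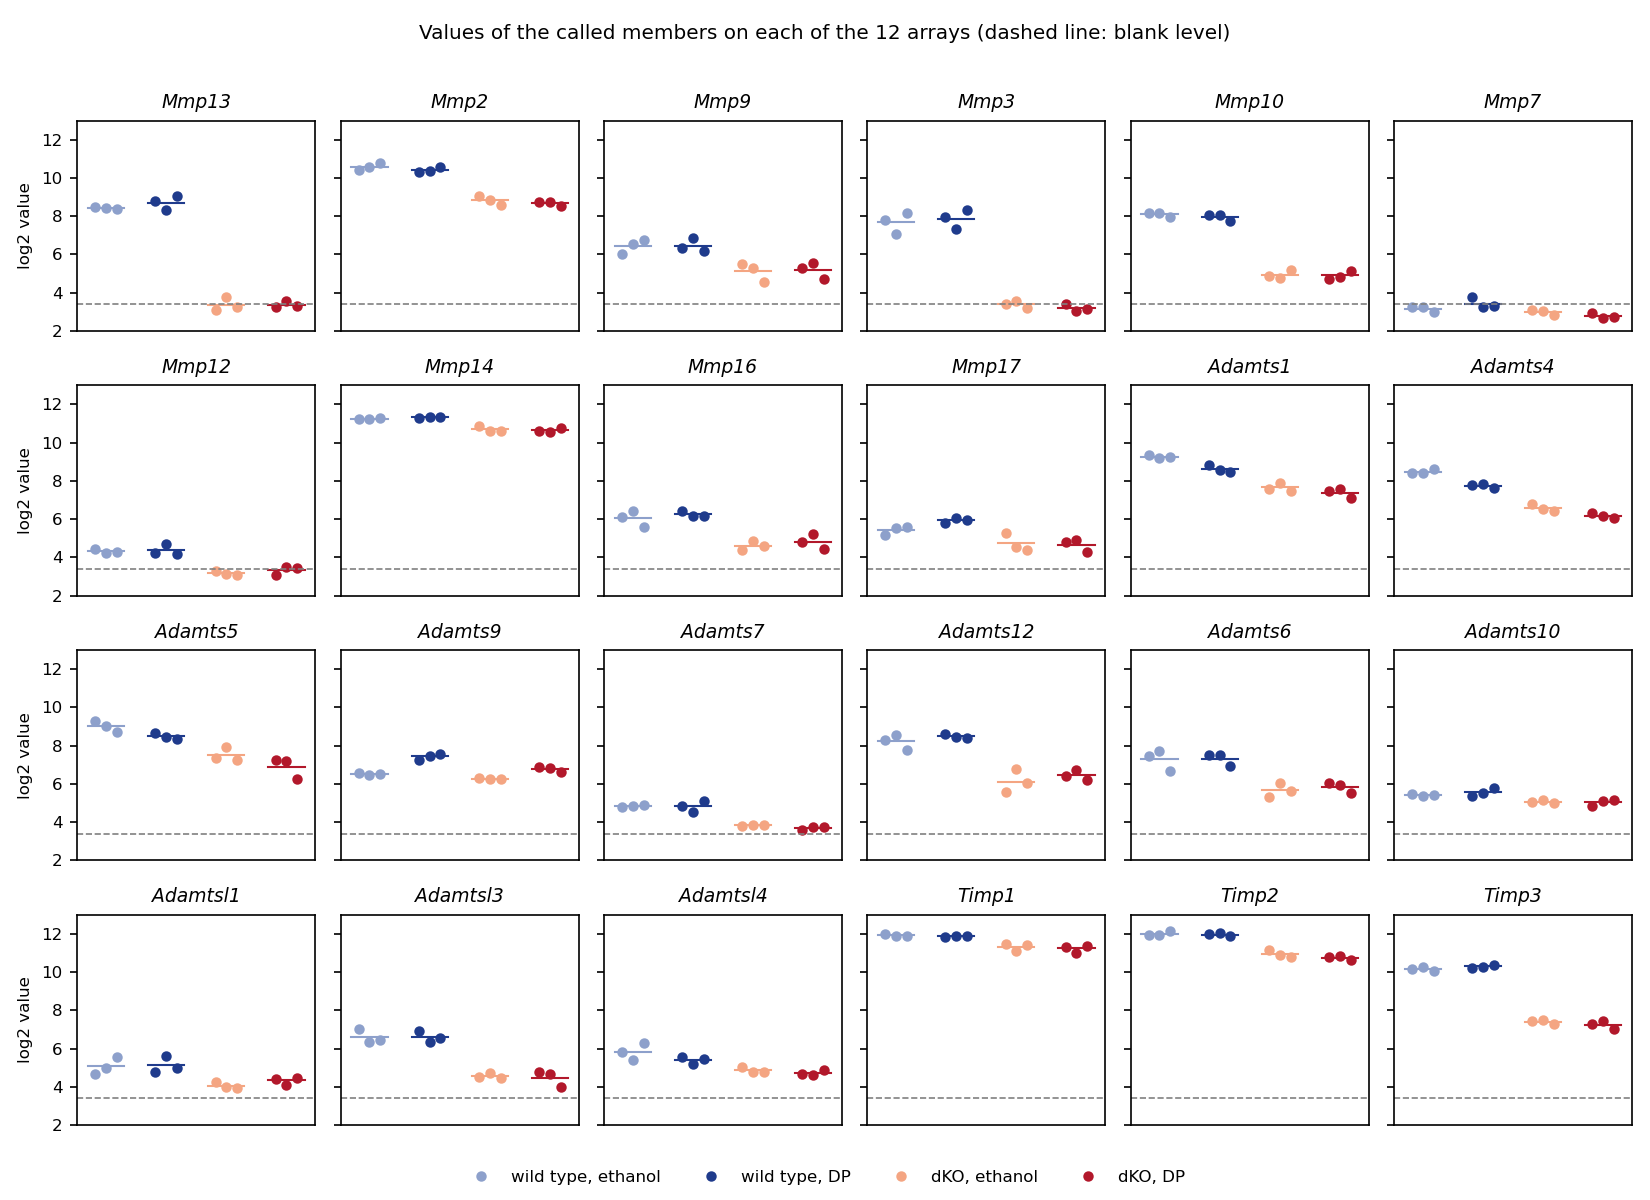
Each panel shows the log2 value (vertical axis, same scale throughout) of 1 of the 24 genes called in at least 1 comparison on the 12 arrays; points are lines, short bars group means, and the dashed line the blank level of 3.40. The dKO group means of Mmp13, Mmp3, Mmp12 and Mmp7 lie at or below the dashed line, with single arrays up to 3.74, while Timp1, Timp2 and Mmp14 remain above 10 on every array.

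All 3 measured inhibitors were lower in dKO, by different amounts. Timp3, the inhibitor that binds to the matrix and also blocks ADAMTS4 and ADAMTS5, gave 10.15, 10.25 and 10.05 in wild type and 7.44, 7.48 and 7.28 in dKO with ethanol, and 10.23, 10.28 and 10.37 in wild type and 7.26, 7.45 and 7.02 in dKO with DP. All dKO arrays lay far below all wild-type arrays. Timp3 was 6.71-fold lower in ethanol and 8.27-fold lower under DP, with log2 changes of -2.75 ± 0.12 in ethanol (adjusted p = 9.57e-09) and -3.05 ± 0.12 under DP (adjusted p = 5.12e-09). It had 4 probe sets, which gave log2 changes from -2.38 to -2.75 in ethanol and from -2.59 to -3.14 under DP, all past the threshold.

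Timp2, the inhibitor that takes part in the activation of pro-MMP2 by MMP14, read 11.95, 11.93 and 12.13 in wild type and 11.16, 10.91 and 10.78 in dKO with ethanol, and 11.99, 12.02 and 11.87 in wild type and 10.80, 10.83 and 10.63 in dKO with DP. No dKO array reached the lowest wild-type array. The log2 changes were -1.06 ± 0.11 in ethanol (adjusted p = 1.14e-05) and -1.21 ± 0.11 under DP (adjusted p = 3.53e-06), and the 5 probe sets of Timp2 ranged from -0.75 to -1.06 in ethanol. Timp1, a secreted inhibitor of most MMPs, read 11.97, 11.91 and 11.90 in wild type and 11.45, 11.10 and 11.43 in dKO with ethanol, and 11.85, 11.89 and 11.91 in wild type and 11.31, 11.02 and 11.38 in dKO with DP. Wild-type arrays agreed closely, all dKO arrays lay below them, and dKO line 5 was lowest in both treatments. Its log2 changes were -0.60 ± 0.12 in ethanol (adjusted p = 0.00138) and -0.64 ± 0.12 under DP (adjusted p = 8.09e-04). Timp1 is X-linked, and among 597 X-linked genes 12.9% were lower in dKO in ethanol and 14.2% under DP. With DP none of the 3 inhibitors passed in either genotype. The log2 changes were -0.04 ± 0.12 for Timp1, -0.04 ± 0.11 for Timp2 and 0.14 ± 0.12 for Timp3 in wild type. In dKO those changes were -0.09 ± 0.12, -0.19 ± 0.11 and -0.16 ± 0.12.

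Among the 7 measured ADAMTS proteases that cleave proteoglycans such as aggrecan and versican, 3 were lower in ethanol and 4 under DP. Adamts4, an aggrecanase, gave 8.42, 8.39 and 8.64 in wild type and 6.81, 6.51 and 6.40 in dKO with ethanol, and 7.77, 7.86 and 7.62 in wild type and 6.30, 6.15 and 6.03 in dKO with DP. The 4 groups did not overlap and were ordered wild type with ethanol, wild type with DP, dKO with ethanol and dKO with DP. Its genotype changes were -1.91 ± 0.13 in ethanol (adjusted p = 2.65e-07) and -1.59 ± 0.13 under DP (adjusted p = 1.01e-06). Adamts1, which cleaves versican and aggrecan, gave 9.36, 9.19 and 9.23 in wild type and 7.60, 7.89 and 7.47 in dKO with ethanol, and 8.82, 8.58 and 8.48 in wild type and 7.47, 7.55 and 7.12 in dKO with DP. The genotypes did not overlap in either treatment, with changes of -1.61 ± 0.14 in ethanol (adjusted p = 2.53e-06) and -1.25 ± 0.14 under DP (adjusted p = 1.81e-05).

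Adamts5, the major aggrecanase of mouse cartilage, gave 9.31, 9.04 and 8.69 in wild type and 7.33, 7.92 and 7.24 in dKO with ethanol, and 8.67, 8.44 and 8.35 in wild type and 7.26, 7.20 and 6.24 in dKO with DP. Its lines varied more than those of Adamts4, with dKO line 6 lowest under DP, and the groups were apart in both treatments, at -1.52 ± 0.26 in ethanol (adjusted p = 5.53e-04) and -1.58 ± 0.26 under DP (adjusted p = 3.86e-04). Adamts9, a secreted versicanase found at the cell surface, read 6.57, 6.47 and 6.54 in wild type and 6.29, 6.25 and 6.27 in dKO with ethanol, and 7.26, 7.46 and 7.56 in wild type and 6.89, 6.82 and 6.62 in dKO with DP. In ethanol dKO lay below wild type on every array but the difference, -0.25 ± 0.10 (adjusted p = 0.0763), did not pass. With cyclic loess it did (-0.47, adjusted p = 0.00347), and with array weights too (-0.24). Under DP it was -0.65 ± 0.10 (adjusted p = 2.63e-04). The dimmer probe sets of Adamts9 gave genotype changes of -0.37 ± 0.20 and -0.13 ± 0.14 under DP and did not pass.

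The ADAMTS proteases known to cleave cartilage oligomeric matrix protein were lower too. Adamts12 gave 8.31, 8.57 and 7.79 in wild type and 5.56, 6.75 and 6.03 in dKO with ethanol, and 8.61, 8.42 and 8.40 in wild type and 6.40, 6.72 and 6.19 in dKO with DP, and Adamts7 gave 4.81, 4.82 and 4.91 in wild type and 3.78, 3.84 and 3.86 in dKO with ethanol, and 4.86, 4.53 and 5.12 in wild type and 3.59, 3.76 and 3.76 in dKO with DP. Their groups did not overlap in either treatment. Adamts12 was 4.33-fold lower in ethanol and 4.1-fold under DP, with log2 changes of -2.11 ± 0.26 in ethanol (adjusted p = 4.33e-05) and -2.04 ± 0.26 under DP (adjusted p = 5.55e-05). For Adamts7 the changes were -1.02 ± 0.13 in ethanol (adjusted p = 4.28e-05) and -1.14 ± 0.13 under DP (adjusted p = 1.68e-05).

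Adamts6 and Adamts10, a pair linked to fibrillin microfibrils, were both lower. Adamts6 gave 7.46, 7.70 and 6.67 in wild type and 5.31, 6.06 and 5.63 in dKO with ethanol, and 7.50, 7.52 and 6.91 in wild type and 6.03, 5.92 and 5.53 in dKO with DP, with changes of -1.61 ± 0.27 in ethanol (adjusted p = 4.36e-04) and -1.48 ± 0.27 under DP (adjusted p = 8.05e-04). Wild-type line 5 was lowest of its genotype and still above all dKO arrays. Adamts10 gave 5.45, 5.36 and 5.40 in wild type and 5.04, 5.16 and 4.98 in dKO with ethanol, and 5.35, 5.53 and 5.77 in wild type and 4.82, 5.10 and 5.16 in dKO with DP. Its groups lay close together, and the call in ethanol, -0.34 ± 0.12 (adjusted p = 0.0456), was lost when any 1 of 7 arrays was left out, with adjusted p up to 0.145. That call was also lost with the mean of all probe sets, with the intensity trend and without the 2 deviating ethanol arrays. Under DP the change of Adamts10 was -0.53 ± 0.12 (adjusted p = 0.00438). Its second probe set passed in neither treatment, at -0.19 ± 0.20 in ethanol and -0.26 ± 0.20 under DP.

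Of 5 ADAMTS-like proteins, which lack the protease domain and bind to the matrix, 3 were lower. Adamtsl3 gave 7.00, 6.32 and 6.43 in wild type and 4.53, 4.72 and 4.48 in dKO with ethanol, and 6.93, 6.36 and 6.57 in wild type and 4.76, 4.68 and 3.96 in dKO with DP. Its dKO arrays all lay well below the wild-type arrays, and the changes were -2.01 ± 0.23 in ethanol (adjusted p = 1.84e-05) and -2.15 ± 0.23 under DP (adjusted p = 9.71e-06). Adamtsl1 gave 4.65, 4.96 and 5.58 in wild type and 4.26, 3.97 and 3.95 in dKO with ethanol, and 4.77, 5.63 and 4.96 in wild type and 4.43, 4.11 and 4.47 in dKO with DP, and Adamtsl4, linked to fibrillin in the eye, gave 5.79, 5.39 and 6.28 in wild type and 5.03, 4.78 and 4.75 in dKO with ethanol, and 5.55, 5.20 and 5.45 in wild type and 4.67, 4.59 and 4.86 in dKO with DP. Neither pair of genotypes overlapped. Adamtsl1 was 2.01-fold lower in ethanol (adjusted p = 0.00567) and 1.72-fold lower under DP (adjusted p = 0.0228). For Adamtsl4 the log2 changes were -0.97 ± 0.19 in ethanol (adjusted p = 0.00125) and -0.69 ± 0.19 under DP (adjusted p = 0.0112). The call of Adamtsl1 under DP was lost without wild-type line 4 (adjusted p = 0.108) or dKO line 5 (adjusted p = 0.0888). The dimmer probe sets of Adamtsl1 passed under DP as well, with log2 changes of -0.99 and -1.47.

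The remaining 16 genes were called in none of the comparisons. Of these, 6 were near blank in all 4 groups, with log2 values from 2.55 to 3.53: Mmp1a, Mmp1b, Mmp8, Mmp20, Adamts15 and Adamts20. Adamts18 lay at the blank level too, with 1 group mean just above it. The other 9 were above blank in all groups, and their genotype changes ran from -0.30 to 0.35 in ethanol and from -0.50 to 0.08 under DP. Mmp23, a small type II membrane MMP, was the expressed gene with the highest change in ethanol, 0.35 ± 0.15 (adjusted p = 0.0881). It passed as higher in dKO without the array of wild-type line 5 (0.49, adjusted p = 0.0167). In ethanol it also passed with array weights (0.29) and without the 2 deviating ethanol arrays (0.34). Under DP Mmp23 stood at 0.08 ± 0.15 (adjusted p = 0.714). Mmp11, stromelysin-3, was strongly expressed in both genotypes and stood at -0.30 ± 0.14 and -0.32 ± 0.14 in ethanol and under DP. It passed as lower in each with cyclic loess, at -0.49, and with array weights, at -0.41 and -0.33. It also passed in ethanol without the ethanol array of dKO line 1, and under DP without the 2 deviating ethanol arrays. Mmp19 stood at -0.23 ± 0.26 and -0.50 ± 0.26, and passed as lower without the ethanol array of dKO line 1 (adjusted p = 0.0457 in ethanol and 0.0424 under DP). Under DP Mmp19 also passed without the 2 deviating ethanol arrays. In ethanol and under DP Adamts16 stood at -0.29 ± 0.13 and -0.12 ± 0.13, Adamtsl2 at -0.16 ± 0.15 and -0.27 ± 0.15 and Adamtsl5 at 0.00 ± 0.23 and -0.26 ± 0.23. For Adamts16 a second probe set did pass, at -0.84 ± 0.11 in ethanol and -0.74 ± 0.11 under DP, so its probe sets disagree. The first passed in ethanol without wild-type line 3 (adjusted p = 0.0430) and with array weights. The mean of its probe sets passed in both treatments.

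Probe sets of the called genes mostly moved together. The called genes had 20 further probe sets in ethanol, of which 16 were lower in dKO. Under DP 16 of 22 were lower, and 0 were higher in either treatment.

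DP itself changed few of the 40 genes. In wild type 3 passed, Adamts9 higher and Adamts1 and Adamts4 lower, against 4.73% of all genes in either direction. In dKO 1 gene passed, Adamts9, against 1.5% of all genes. The 21 Mmp and Timp genes gave log2 changes with DP from -0.18 to 0.51 in wild type and from -0.36 to 0.22 in dKO, and 0 of them passed.

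Adamts9 rose with DP in every line. The increase was 0.70, 1.00 and 1.03 log2 units in wild-type lines 3, 4 and 5 and 0.61, 0.58 and 0.35 in dKO lines 1, 5 and 6. The test gave 0.91 ± 0.10 (adjusted p = 1.15e-04) in wild type, a 1.88-fold rise. In dKO it gave 0.51 ± 0.10 (adjusted p = 0.0255), a 1.43-fold rise. The call in dKO did not hold with the MEF line as a block (adjusted p = 0.0610), and it was lost on leaving out dKO line 1, 5 or 6 in ethanol or line 1 or 5 under DP, with adjusted p up to 0.121. The difference between the genotypes, -0.40 ± 0.14 (adjusted p = 0.603), did not pass. Of the 3 probe sets of Adamts9, the brightest carries these values, and the dimmer ones gave 0.48 ± 0.20 and 0.01 ± 0.14 in wild type and did not pass. The hypoxia response core (ACGTG) was not among the 250 bases before the Adamts9 start; 6 of the 26 genes with a promoter and 16.6% of all windows held it.

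The aggrecanase genes Adamts4 and Adamts1 fell with DP in wild type. Adamts4 changed by -0.65, -0.53 and -1.02 log2 units in wild-type lines 3, 4 and 5, and by -0.51, -0.36 and -0.37 in dKO lines 1, 5 and 6. Every line was lower with DP, and the tests gave -0.73 ± 0.13 (adjusted p = 0.00365) in wild type and -0.41 ± 0.13 (adjusted p = 0.168) in dKO. Its second probe set gave -0.71 ± 0.13 in wild type. Adamts1 changed by -0.54, -0.61 and -0.74 in the wild-type lines and by -0.12, -0.34 and -0.35 in the dKO lines. The tests gave -0.63 ± 0.14 (adjusted p = 0.0199) in wild type and -0.27 ± 0.14 (adjusted p = 0.398) in dKO. The wild-type call of Adamts1 was lost without line 3 in ethanol or line 4 or 5 under DP, with adjusted p up to 0.105. Adamts5 was lower with DP in all 6 lines as well, and did not pass in wild type, -0.53 ± 0.26 (adjusted p = 0.376), or dKO, -0.60 ± 0.26 (adjusted p = 0.336). Of its 4 probe sets, 1 other passed in wild type, at -0.87 ± 0.20 (adjusted p = 0.0310 over all probe sets), so the probe sets of Adamts5 disagree on the call. The ethanol arrays of wild type serve both this comparison and the genotype comparison in ethanol.

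**Figure D4:**
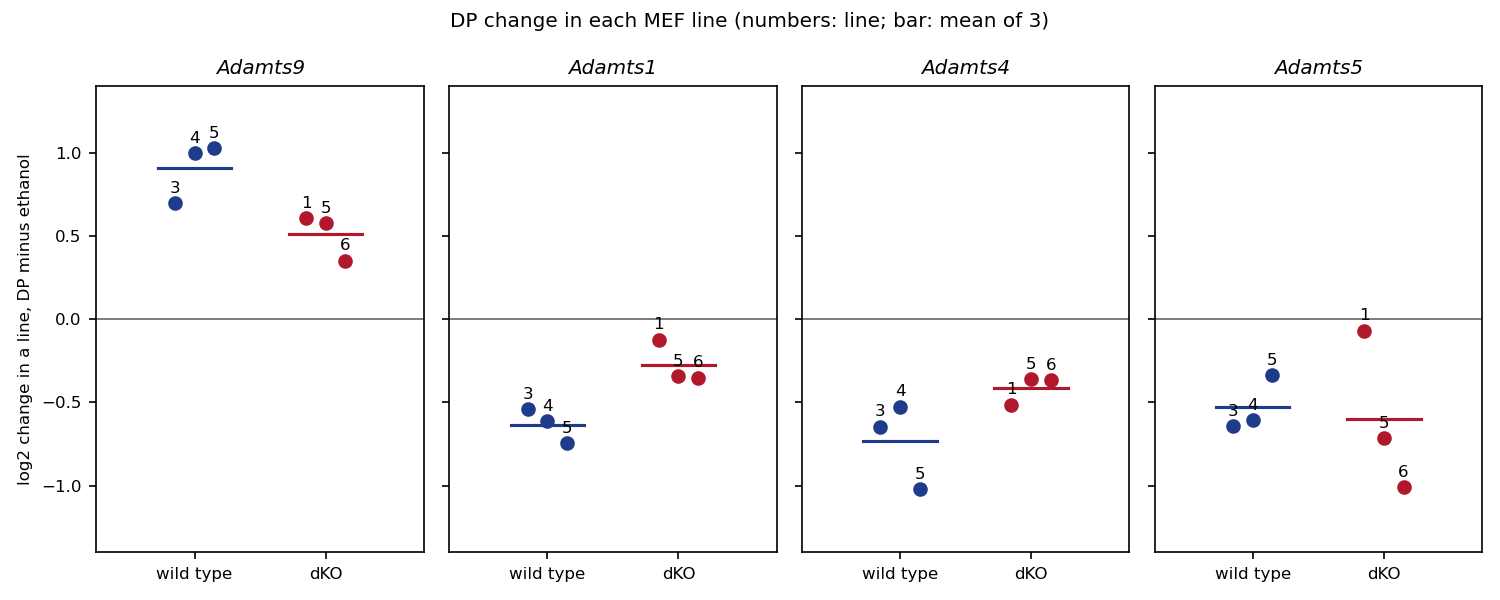
Log2 change with DP (DP minus ethanol array of the same line, vertical axis) for Adamts9, Adamts1, Adamts4 and Adamts5 in the 3 wild-type (blue) and 3 dKO (red) lines, with line numbers and bars at the means. All 6 lines lie above 0 for Adamts9, from 0.35 to 1.03, and below 0 for the other genes.

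The difference of the DP effects between genotypes passed for 0 of the 40 genes in limma, against 0.562% of all genes. At an unadjusted p under 0.05 there were 2, Adamts9 and Mmp7. For Adamts4 the difference was 0.32 ± 0.18 and for Adamts1 0.36 ± 0.20, dKO minus wild type.

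**Figure D5:**
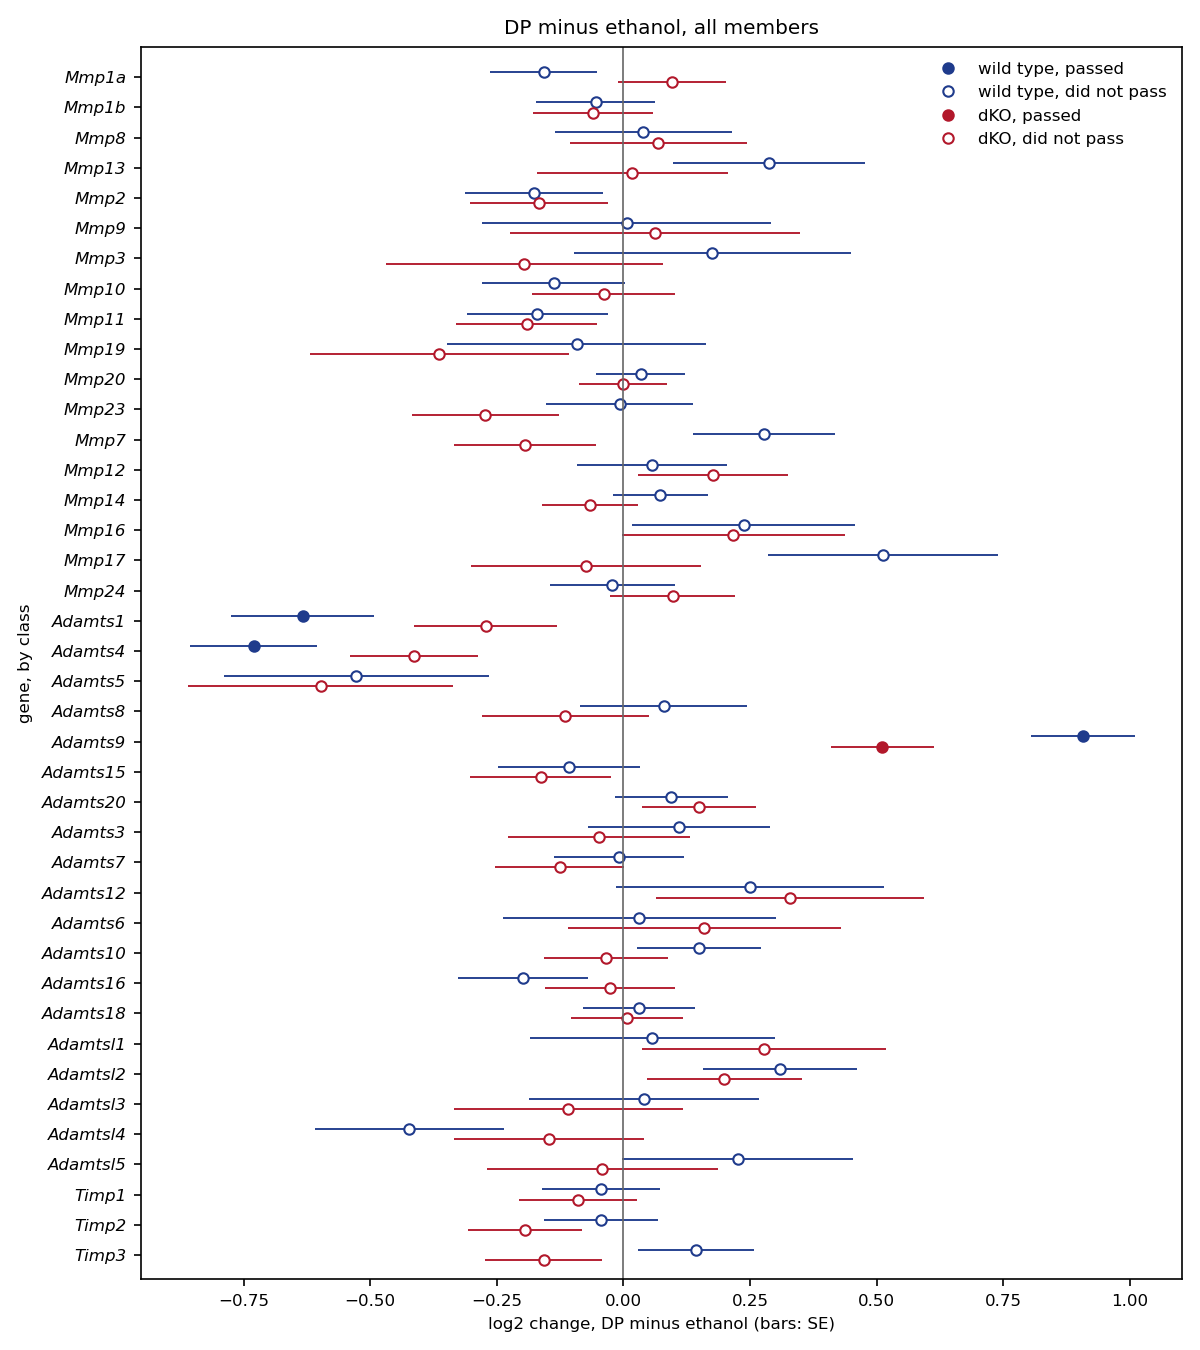
Log2 change with DP (horizontal axis, DP minus ethanol, bars of 1 SE) of the 40 genes in wild type (blue) and dKO (red), with filled points for those past the threshold. The filled points are Adamts9 in both genotypes at 0.91 and 0.51, and Adamts1 and Adamts4 in wild type at -0.63 and -0.73.

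Genes that act with these proteases were read from lists of the pathway. Among 14 measured genes of protease activation and clearance, 2 were higher and 5 lower in dKO in ethanol, and 1 was higher and 6 lower under DP. Of all genes, 19.5% were higher and 14.1% lower in ethanol, and 18.5% were higher and 16.9% lower under DP. Reck, a membrane-anchored inhibitor of MMPs, rose by 0.97 in ethanol and by 1.05 under DP, opposite to the Timp genes. Itgb3, a receptor subunit that docks MMP2, fell by 2.79 in ethanol, Cd44, which docks MMP9, fell by 1.84, and Pcsk5, a proprotein convertase, fell by 1.30. Furin itself was not called. In the plasminogen system, which activates pro-MMPs, 3 of 4 measured genes were lower: Plau, Plat and Plaur, with log2 changes of -1.83, -1.82 and -1.70 in ethanol. Plaur also fell with DP in wild type, by 0.70.

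Related proteases and the substrates were lower as well. Of 13 ADAM and astacin proteases, 7 were lower in each treatment and 0 higher. Of all genes, 14.1% were lower in ethanol and 16.9% under DP, and 19.5% and 18.5% were higher. The log2 change in ethanol was -2.37 for Adam12, -1.89 for Adam8, -1.87 for Tll1 and -1.84 for Adam19. Of 16 matrix substrates, 12 were lower in each treatment and 0 higher. In ethanol the log2 change was -2.24 for Fbn2 (fibrillin-2), -2.16 for Vcan (versican), -1.68 for Col1a1 and -1.54 for Eln (elastin). The median change of the substrates was -0.98 in ethanol, and of the 40 protease and inhibitor genes -0.57. The sets are unlike, as 1 of the 16 substrates and 6 of the 40 genes were near blank in all 4 groups.

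Transcription factors that act on protease genes went both ways. Of 13 measured, 5 were higher and 5 lower in dKO in ethanol, and 4 were higher and 5 lower under DP. The shares of all genes were 19.5% higher and 14.1% lower in ethanol, and 18.5% higher and 16.9% lower under DP. Fos rose by 3.09 in ethanol, while Runx1, Fosl1 and Ets2 changed by -2.02, -1.60 and -1.41. With DP, 7 of the 13 rose in wild type, against 3.05% of all genes, led by Fosl1 at 2.06 ± 0.19 and Fos at 1.97 ± 0.20. In dKO 2 rose, against 1.01% of all genes, Fosl1 at 0.99 ± 0.19 and Fosl2 at 0.71 ± 0.11. Fos changed by 0.17 ± 0.20 with DP in dKO, and its difference between genotypes, -1.80 ± 0.28, passed (adjusted p = 0.00820). With DP in wild type, Mmp13, Mmp3 and Mmp10 changed by 0.29 ± 0.19, 0.18 ± 0.27 and -0.14 ± 0.14, none of which passed. A link between the AP-1 genes and these Mmp genes was not tested.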

How the data were processed

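Per the submitters' processing notes, the authors deposited log2 values per probe set, computed by RMA with version 1.1 of Affymetrix Expression Console. RMA subtracts background, puts arrays on a common scale and combines the probes of a set. Of 45141 probe sets, 104 controls were set aside, and 28898 named exactly 1 gene, with symbols updated through the GRCm38.p6 gene table. The probe set of highest mean over the 12 arrays stood for each of 17097 genes, with no filter. The blank level is the mean over arrays of the percentile 95 of 20 blank control probe sets.

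Tests used limma 3.58.1 in R 4.3.3 (lmFit, eBayes, 1 mean per group, no block) for 5 contrasts. Calls required p under 0.05 after Benjamini-Hochberg adjustment over all genes. Values after ± are SE. The fit was tested on simulated data with changes put into the wild-type DP group only and with no spread shared between arrays of a line. Called genes and the Timp genes were named with all values. Up to 6 of the rest with the largest change, and up to 4 called genes per list and contrast, were named by their changes only. Mmp24 was named beside its class, and genes at or near blank were named without changes. The members and lists were chosen with earlier results of these data known.

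Lines pair the arrays, since the labels give each numbered MEF both treatments. As a check, the deviations of a line's DP array and its ethanol array from their group means had correlations of 0.42, 0.06 and 0.33 in wild-type lines 3, 4 and 5 and of 0.04, 0.32 and 0.36 in dKO lines 1, 5 and 6, over 8917 genes. Alternatives were the line as a replicate block, the mean of all probe sets, leaving out the dimmest 40% of genes, cyclic loess, an intensity trend with robust eBayes, array weights, and leaving out the 2 ethanol arrays that stood apart or each array in turn. Promoter windows and motifs were read with Python 3.11.15 from RefSeq tables, and figures were drawn with matplotlib 3.10.9.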

Additional observations from a re-analysis of the deposited data

How the results depend on the processing

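Alternative settings gave 2645 values of single genes, for the genes called in at least 1 setting only. Of these, 2600 kept their side of the threshold, 27 no longer passed, 18 newly passed and 0 passed in the opposite direction. Values that did not pass could change sign. On leaving out 1 array, the change of Adamts6 with DP in wild type ran from -0.27 to 0.24. In the genotype comparisons, 19 genes stayed lower in both treatments under every alternative in which they were tested; the exceptions among the 24 were Mmp7, Mmp17, Adamts9, Adamts10 and Adamtsl1. The count of genes called with DP in dKO was 1 as reported and 0 with the replicate block, with the mean of all probe sets (Adamts9 adjusted p = 0.177) and with the intensity trend (adjusted p = 0.0572). Leaving out 1 array gave 0 to 1. The same leave-one-out range was 2 to 3 for DP in wild type, 20 to 23 for genotype in ethanol, 23 to 25 for genotype under DP and 0 to 0 for the difference of the DP effects. The replicate block changed no other call. The cause of the lost calls was not tested. Signal over background limits Mmp7, Mmp12 and the genes near blank, whose changes can be larger than the arrays show.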
